A study of Mus musculus with 8 samples.

Results

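Hepatokines are signalling or carrier proteins that the liver releases into blood. The transcripts of 9 of them, Fgf21, Gdf15, Angptl4, Angptl6, Angptl8, Ahsg, Fetub, Lect2 and Rbp4, were followed in bulk liver RNA, chosen by gene symbol from the 52030 named genes of the deposited table. Livers came from WT mice fed CDAHFD, a high-fat diet without choline in which protein is replaced by defined L-amino acids and which produces steatohepatitis. Every mouse had received human circulating vesicles by vein: RIC_hEV livers (4 libraries) followed vesicles from volunteers after remote limb ischemic conditioning, a series of brief blood-flow interruptions in a limb, and ctr_hEV livers (4 libraries) followed vesicles from sham-treated volunteers. Diet, genotype and human origin of the vesicles were thus shared by both groups. The labels state no mouse strain, sex, age, vesicle dose, number of injections, number or pooling of volunteers, or time of harvest. They also do not say whether each library is a separate mouse, so p-values measure the spread between these libraries, which may be partly technical. All 9 genes exceeded the expression minimum for testing, a mean of 1 FPKM (sequenced fragments relative to transcript length and library size) over the 8 libraries.

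These proteins act at different steps of metabolism. FGF21, a fasting and amino acid stress hormone, signals through FGF receptors with the co-receptor beta-Klotho, and its gene is a target of the nuclear receptor PPAR alpha and of the stress factor ATF4. GDF15, a stress cytokine of the TGF-beta superfamily, acts through GFRAL and RET in the hindbrain. ANGPTL4 blocks lipoprotein lipase, the enzyme that releases fatty acids from circulating triglyceride, and ANGPTL8 takes part in the control of the same enzyme. The fetuins AHSG and FETUB belong to the cystatin superfamily, LECT2 was first described as a leukocyte chemotactic factor, and RBP4 carries retinol in blood together with transthyretin.

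No hepatokine transcript differed between RIC_hEV and ctr_hEV livers past the threshold of a limma adjusted p of 0.05 over all 11268 tested genes. Of all tested genes 0.0355% passed (4 genes), 0.0177% higher and 0.0177% lower, and 178 genes passed when ctr_hEV 4 was left out, none of them a hepatokine. At an unadjusted limma p under 0.05 there were 2 of 9 hepatokines, Angptl4 and Rbp4, both higher in RIC_hEV. Of all tested genes 14.0% had such a p, 2.64% higher and 11.4% lower. That background split turned with the scaling, to 8.20% higher and 3.88% lower after median centring and 5.37% and 5.39% after quantile normalization. Under median centring Ahsg joined the 2 genes, and under quantile normalization Angptl4 alone remained. In both Angptl4 and Rbp4 every RIC_hEV library lay above every ctr_hEV library, a separation in this direction seen in 1.31% of tested genes. As fitted, 7 hepatokines had a higher mean log2 value in RIC_hEV and 2 a lower one (median log2 change 0.24, against -0.11 over all tested genes, of which 27.0% were higher), although Ahsg turned to -0.08 under quantile normalization and Gdf15 to -0.02 on a TPM scale. The median over all tested genes was 0.03 after median centring and -0.01 after quantile normalization. The 27.0%, used again below, thus depends on the scaling as well.

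The promoter windows of 3 hepatokine genes held the letters of the ATF4 composite element, TGATGNAAT on either strand, and are shown because ATF4 is a known regulator of Fgf21 and its target genes are described further on. Windows run from 250 bases before to 50 bases after an annotated start (RefSeq, GRCm38.p6), read 5′ to 3′ in the direction of the gene, with the matching letters in capitals. Windows were matched for 8 of the 9 genes, all but Angptl4, and came to 11.
Fgf21, chr7:45615441-45615740, minus strand: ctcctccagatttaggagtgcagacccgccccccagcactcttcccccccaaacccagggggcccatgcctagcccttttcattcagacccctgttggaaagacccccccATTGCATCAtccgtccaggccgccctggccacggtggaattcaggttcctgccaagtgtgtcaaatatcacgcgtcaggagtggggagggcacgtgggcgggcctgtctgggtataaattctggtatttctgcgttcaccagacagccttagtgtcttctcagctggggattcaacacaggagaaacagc
Angptl8, chr9:21835260-21835559, plus strand: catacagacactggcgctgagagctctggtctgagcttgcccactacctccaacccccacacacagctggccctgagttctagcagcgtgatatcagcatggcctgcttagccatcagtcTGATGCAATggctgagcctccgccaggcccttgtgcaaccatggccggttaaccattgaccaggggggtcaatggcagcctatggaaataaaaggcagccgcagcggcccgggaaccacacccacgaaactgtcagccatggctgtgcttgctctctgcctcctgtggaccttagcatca
Rbp4 upstream start, chr19:38125272-38125571, minus strand: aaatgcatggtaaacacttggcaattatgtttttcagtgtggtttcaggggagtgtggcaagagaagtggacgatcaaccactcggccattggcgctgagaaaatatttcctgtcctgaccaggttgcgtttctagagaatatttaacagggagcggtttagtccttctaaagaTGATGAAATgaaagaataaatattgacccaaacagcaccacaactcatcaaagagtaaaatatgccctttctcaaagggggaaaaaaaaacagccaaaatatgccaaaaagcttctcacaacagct
In Fgf21 the match read ATTGCATCA, positions -140 to -132 from the start, and in Angptl8 it read TGATGCAAT, positions -130 to -122, the same 9 letters on opposite strands. The upstream Rbp4 window held TGATGAAAT at -76 to -68, and the window of the other Rbp4 start held no match. Of 32851 promoter windows of the same length, 0.965% held such a match. Other letters searched on both strands were CACGTG (E-box, 7.15% of windows), found in Fgf21 and in 1 window of Gdf15, TATAAA (13.6%), found in Fgf21, Fetub and the second Rbp4 window, and the direct repeat 1 element of nuclear receptors, AGGTCA repeated after a spacer of 1 base (0.0396%), found in none of the 11. No match overlapped another. These are matches of letters in a window, not measured binding.

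FPKM is scaled to transcript length, so levels of different genes can be set side by side as far as the authors' gene lengths hold. Over the 8 libraries Ahsg averaged 2323 FPKM and Rbp4 1998 FPKM, each above 99.7% of tested genes. Lect2 followed at 125 FPKM, Fetub at 109 FPKM, Angptl4 at 51.8 FPKM and Fgf21 at 32.4 FPKM. Gdf15 (12.4 FPKM), Angptl8 (9.71 FPKM) and Angptl6 (5.09 FPKM) were the lowest. Ahsg exceeded Rbp4 in 8 of 8 libraries although their ranges overlapped, and the neighbours Lect2 and Fetub, Angptl4 and Fgf21, Gdf15 and Angptl8, and Angptl8 and Angptl6 kept this order in 6 of 8 libraries each. Ranges over the 8 libraries were apart between Rbp4 and Lect2, between Fetub and Angptl4, and between Fgf21 and Gdf15. Together the 9 transcripts took 1.13% to 1.28% of all FPKM in RIC_hEV libraries and 1.05% to 1.06% in ctr_hEV libraries, most of it Ahsg and Rbp4.

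**Figure D1:**
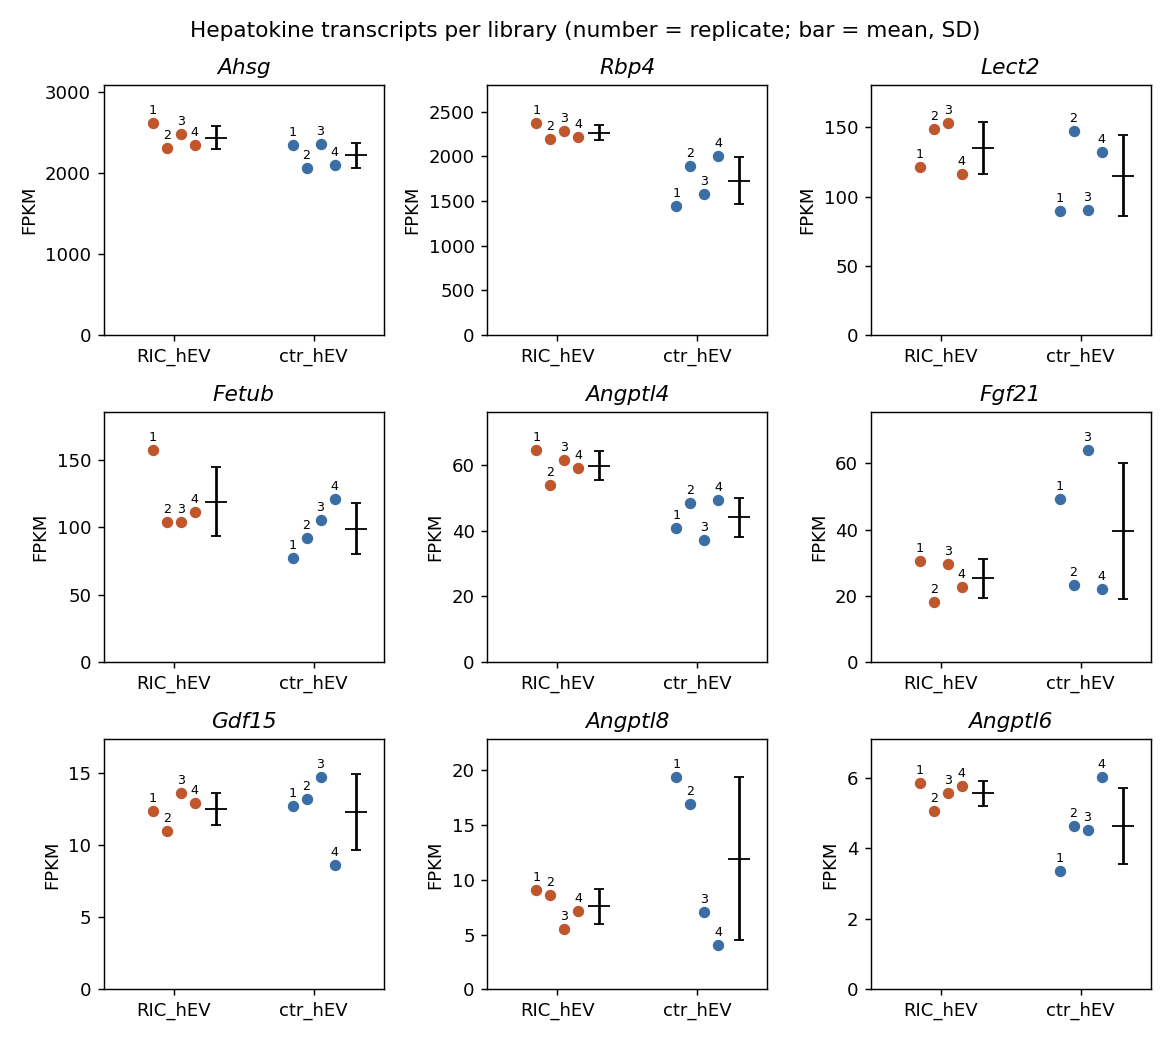
FPKM of each hepatokine transcript (vertical axes, linear from 0) in the 4 RIC_hEV and 4 ctr_hEV libraries, numbered by replicate, with mean and SD as bars. Angptl4 and Rbp4 have no overlap between groups, and the 2 highest Fgf21 values, 63.9 and 49.1 FPKM, belong to ctr_hEV 3 and ctr_hEV 1.

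In units of 1000000 fragments, depth was estimated at 19.7 to 29.2 in RIC_hEV and 24.3 to 29.2 in ctr_hEV from the most common step of low FPKM values, as no read counts were used here. At these depths the lowest value of Angptl8, in ctr_hEV 4, would rest on about 92 fragments (counting error 10.4%), that of Angptl6 on 152 and that of Fgf21 on 356. The hepatocyte marker Alb was at 19618 to 24977 FPKM in RIC_hEV and 16909 to 28051 FPKM in ctr_hEV, and all 10 hepatocyte markers were tested. Of those 10, 8 were higher and 2 lower in RIC_hEV as fitted, where 27.0% of all tested genes were higher. At an unadjusted limma p under 0.05, 5 of them were higher, against 2.64% of all tested genes (8.20% after median centring), and none passed the adjusted threshold. Summed macrophage, stellate, cholangiocyte, neutrophil and erythroid markers were highest in ctr_hEV 1 and ctr_hEV 3: summed macrophage markers (10 of 10 tested) stood at 619.6 to 918 FPKM in RIC_hEV, at 1615 and 1273 FPKM in those 2 libraries, and at 839.7 and 793 FPKM in ctr_hEV 2 and 4. Summed cholangiocyte markers (4 of 7 tested) stood at 20.2 to 39.0 FPKM in RIC_hEV, at 146 and 108 FPKM in ctr_hEV 1 and 3, and at 26.3 and 27.7 FPKM in ctr_hEV 2 and 4. Most of that sum was Spp1, which stands in the macrophage list as well, at 23.6 ± 8.51 FPKM in RIC_hEV (SD, n = 4), 129 and 97.7 FPKM in ctr_hEV 1 and 3, and 22.5 and 24.7 FPKM in ctr_hEV 2 and 4. The bile duct keratin Krt19 was at 0.576 to 1.03 FPKM in RIC_hEV, 4.18 and 2.04 FPKM in ctr_hEV 1 and 3, and 1.48 and 0.810 FPKM in ctr_hEV 2 and 4. Erythroid markers (5 of 5 tested, mostly globin genes) summed to 152 to 164 FPKM in RIC_hEV, 605 and 352 FPKM in ctr_hEV 1 and 3, and 83.4 and 184 FPKM in ctr_hEV 2 and 4. Alas2, the only erythroid marker that is not a globin gene, went the other way, at means of 10.3 FPKM in RIC_hEV and 7.79 FPKM in ctr_hEV. Neutrophil markers (5 of 8 tested) summed to 9.17 to 18.4 FPKM in RIC_hEV and 16.1 to 75.8 FPKM in ctr_hEV. B or plasma cell markers (2 of 7 tested) summed to 42.4 to 54.0 FPKM in RIC_hEV and 13.8 to 25.6 FPKM in ctr_hEV. Most of that sum was the immunoglobulin gene Igkc, at 37.4 to 49.2 FPKM in RIC_hEV and 11.0 to 22.2 FPKM in ctr_hEV. Both tested genes, Igkc and Jchain, were higher without overlap, as were 1.31% of tested genes, and neither passed. Below the minimum, Cd79a averaged 0.319 FPKM in RIC_hEV and 0.318 FPKM in ctr_hEV, with Cd79b at 0.834 and 0.885 FPKM in that order. Mzb1, also below it, averaged 0.519 FPKM in RIC_hEV and 0.246 FPKM in ctr_hEV. In bulk tissue, fewer cells of a type and less RNA per cell cannot be told apart. Angptl4 and Rbp4 are also expressed in fat. Of 7 adipocyte markers 2 were tested, Fabp4 and Pnpla2, which other cells express as well. The 7 summed to 57.7 to 76.0 FPKM in RIC_hEV and 52.3 to 62.8 FPKM in ctr_hEV, of which Pnpla2 made up 51.3 to 68.1 FPKM in RIC_hEV and 45.3 to 54.6 FPKM in ctr_hEV. The defining markers Adipoq and Lep were listed at 0 in all 8 libraries. The part of fat in the Angptl4 and Rbp4 values was not tested.

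Fgf21 was the hepatokine with the lowest mean log2 change in RIC_hEV, and its difference lay within the spread of the controls. Fgf21 (chromosome 7, 45613886 to 45615490, minus strand, GENCODE M21, GRCm38) was at 30.6, 18.1, 29.6 and 22.8 FPKM in RIC_hEV 1 to 4, against 49.1, 23.3, 63.9 and 22.0 FPKM in ctr_hEV 1 to 4. The groups overlapped, with ctr_hEV 2 and 4 inside the RIC_hEV range and ctr_hEV 1 and 3 above all other libraries. Means were 25.3 ± 5.88 FPKM in RIC_hEV and 39.5 ± 20.5 FPKM in ctr_hEV (SD, n = 4 each). The log2 change was -0.51 (SE 0.32, 95% interval -1.22 to 0.20, limma adjusted p = 0.445), or -0.40 relative to the median tested gene. It was 0.13 without ctr_hEV 1 and ctr_hEV 3 together and between -0.74 and -0.24 with any 1 library left out, closest to 0 without ctr_hEV 3. As ctr_hEV 1 and 3 held the highest Fgf21 values, leaving out both could only raise the change. Those 2 control libraries also held the highest macrophage, cholangiocyte and erythroid marker sums given above, and the part of these in the Fgf21 values was not tested.

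Receptors and regulators of Fgf21 showed no passing gene among 15 tested of 16 listed (4 higher and 11 lower as fitted, median log2 change -0.13). Over all tested genes 27.0% were higher and the median log2 change was -0.11. Klb, encoding beta-Klotho, was at 4.92, 5.62, 4.69 and 6.18 FPKM in RIC_hEV 1 to 4 and at 6.63, 6.50, 6.07 and 6.10 FPKM in ctr_hEV 1 to 4, with overlapping groups (log2 change -0.21, limma adjusted p = 0.370). The receptor Fgfr4, the main FGF receptor of hepatocytes, averaged 4.77 ± 0.992 FPKM in RIC_hEV and 5.27 ± 0.613 FPKM in ctr_hEV, and Fgfr1 averaged 1.28 ± 0.231 FPKM in RIC_hEV and 1.61 ± 0.657 FPKM in ctr_hEV. Fgfr3 was at 0.986 to 1.53 FPKM in RIC_hEV, against 2.98 and 2.83 FPKM in ctr_hEV 1 and 3 and 1.53 and 1.30 FPKM in ctr_hEV 2 and 4, so its control values split between the same libraries as those of Fgf21. Ppara averaged 32.0 ± 5.67 FPKM in RIC_hEV and 33.4 ± 3.48 FPKM in ctr_hEV. Creb3l3, whose product CREBH cooperates with PPAR alpha on Fgf21, averaged 138 ± 8.43 FPKM in RIC_hEV and 123 ± 6.30 FPKM in ctr_hEV (limma adjusted p = 0.411). Nr0b2, encoding the repressor SHP, had the lowest p of the list at 22.0 ± 4.65 FPKM in RIC_hEV and 11.5 ± 6.02 FPKM in ctr_hEV, with overlapping groups (log2 change 1.0, SE 0.32, limma adjusted p = 0.336).

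Of the genes of the integrated stress response, through which ATF4 and CHOP act, none passed. Of 21 tested genes (24 listed), 15 were lower and 6 higher in RIC_hEV as fitted, a split close to that of all tested genes, of which 27.0% were higher. Their median log2 change was -0.30, against -0.11 over all tested genes. At an unadjusted limma p under 0.05, 8 were lower and 2 higher, where 11.4% of all tested genes were lower and 2.64% higher (3.88% and 8.20% after median centring). Ddit3, encoding CHOP, was at 4.61, 5.45, 5.65 and 5.81 FPKM in RIC_hEV 1 to 4 and at 9.65, 10.4, 10.7 and 5.74 FPKM in ctr_hEV 1 to 4 (log2 change -0.64, limma adjusted p = 0.331). Of the controls, ctr_hEV 4 alone lay within the RIC_hEV range. Asns, asparagine synthetase, was at 3.90 to 4.81 FPKM in RIC_hEV and at 12.6, 6.62, 14.1 and 4.04 FPKM in ctr_hEV 1 to 4 (limma adjusted p = 0.354). Trib3, a pseudokinase induced by CHOP, was at 3.52 to 6.25 FPKM in RIC_hEV and at 10.8, 6.56, 11.2 and 4.40 FPKM in ctr_hEV 1 to 4. As for Fgf21, the highest Asns and Trib3 values were those of ctr_hEV 3 and ctr_hEV 1. Atf4 was at 28.4 to 35.5 FPKM in RIC_hEV and 31.9 to 54.1 FPKM in ctr_hEV (limma adjusted p = 0.352). In Vldlr, a lipoprotein receptor, every RIC_hEV library (0.440 to 0.919 FPKM) lay below every ctr_hEV library (1.14 to 1.58 FPKM), whereas Ddit4, an inhibitor of mTORC1, averaged 32.1 ± 6.36 FPKM in RIC_hEV and 18.9 ± 4.78 FPKM in ctr_hEV (limma adjusted p = 0.331 for both). A separation in the direction of Vldlr was seen in 4.56% of tested genes. Every RIC_hEV value of Vldlr was under 1 FPKM, so it met the expression minimum only through its ctr_hEV values. Without ctr_hEV 1 and 3 together the list median was -0.06, against -0.03 over all tested genes.

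Gdf15 showed nearly equal group means. Gdf15 (chromosome 8, 70629393 to 70632456, minus strand) was at 12.4, 11.0, 13.6 and 12.9 FPKM in RIC_hEV 1 to 4 and at 12.7, 13.2, 14.7 and 8.60 FPKM in ctr_hEV 1 to 4. The RIC_hEV values lay inside the control range, whose lowest value was that of ctr_hEV 4. Means were 12.5 ± 1.09 FPKM in RIC_hEV and 12.3 ± 2.61 FPKM in ctr_hEV (SD, n = 4 each), and the log2 change of 0.04 (SE 0.15, 95% interval -0.30 to 0.37, limma adjusted p = 0.909) turned to -0.11 without ctr_hEV 4 and to -0.02 on a TPM scale. Its receptor gene Gfral was listed at 0 in all 8 libraries, and Ret, the co-receptor, reached at most 0.0153 FPKM in RIC_hEV and 0.0160 FPKM in ctr_hEV. Of 10 listed receptor and inducer genes 8 were tested and none passed (1 higher, 7 lower, median log2 change -0.21). Of all tested genes 27.0% were higher as fitted, with a median log2 change of -0.11. Hmox1, heme oxygenase, averaged 82.8 ± 12.4 FPKM in RIC_hEV and 110.3 ± 22.8 FPKM in ctr_hEV, and Nfe2l2, encoding the antioxidant regulator NRF2, 27.1 ± 3.25 FPKM in RIC_hEV and 33.9 ± 4.06 FPKM in ctr_hEV (limma adjusted p = 0.354 for both).

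Angptl4 had the largest positive change of the 9 transcripts. Angptl4 (chromosome 17, 33773750 to 33781830, minus strand) was at 64.4, 53.9, 61.5 and 59.0 FPKM in RIC_hEV 1 to 4, against 40.9, 48.5, 37.2 and 49.2 FPKM in ctr_hEV 1 to 4. The lowest RIC_hEV library was above the highest control. The ratio of means was 1.36, with 59.7 ± 4.45 FPKM in RIC_hEV and 44.0 ± 5.86 FPKM in ctr_hEV (SD, n = 4 each). The log2 change was 0.44 (SE 0.12, 95% interval 0.18 to 0.70) and 0.55 relative to the median tested gene, at an unadjusted limma p of 0.00357 and an adjusted p of 0.331, 119th of 11268 genes by p. Without ctr_hEV 1 and 3 together, the libraries with the lowest Angptl4, it was 0.28. With any 1 library left out it was 0.36 to 0.50, at limma adjusted p of 0.0622 to 0.656.

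**Figure D2:**
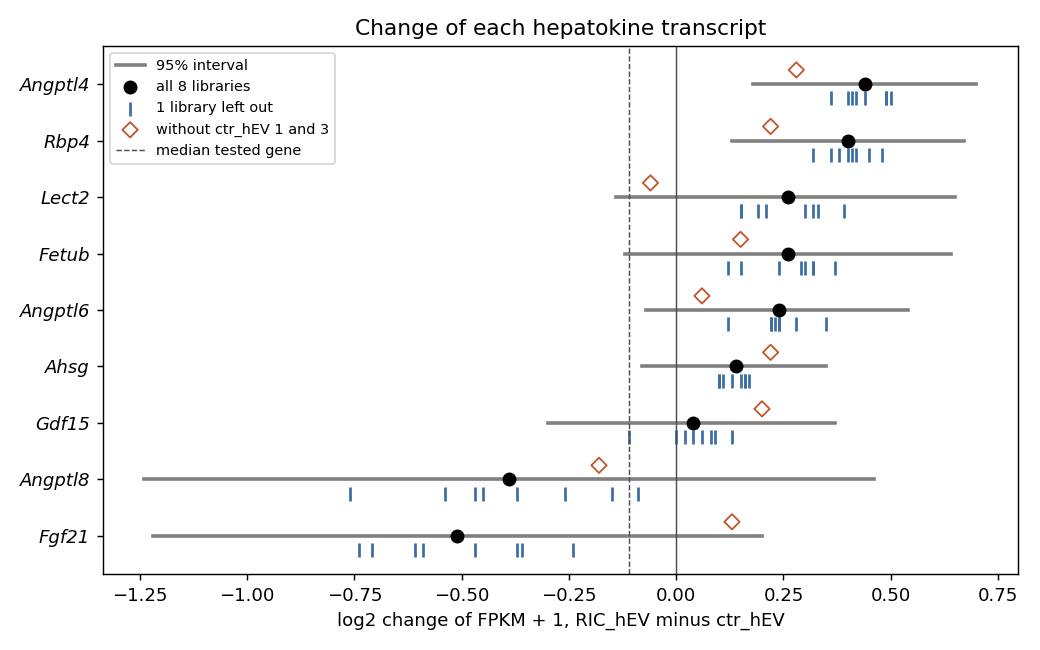
Log2 change of each hepatokine transcript, RIC_hEV minus ctr_hEV, on the log2(FPKM + 1) scale (horizontal axis), with its 95% interval, the values with 1 library left out and the value without ctr_hEV 1 and 3. The intervals of Angptl4 (0.18 to 0.70) and Rbp4 (0.13 to 0.67) lie above 0, and those of the other 7 include it.

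PPAR alpha targets, the group to which Angptl4 and Fgf21 belong, were mostly higher in RIC_hEV as fitted, where 27.0% of all tested genes were higher, and none passed. Of 25 listed and tested genes 22 were higher and 3 lower as fitted, with a median log2 change of 0.20 against -0.11 over all tested genes, and 7 were higher and 1 lower at an unadjusted limma p under 0.05, against 2.64% higher and 11.4% lower over all tested genes (8.20% and 3.88% after median centring). Plin5, a lipid droplet protein, was at 44.4 to 68.6 FPKM in RIC_hEV and 34.6 to 40.8 FPKM in ctr_hEV. Plin5 was thus higher in every RIC_hEV library than in any control, like Angptl4 and unlike Fgf21 (log2 change 0.51, SE 0.14, limma adjusted p = 0.331). Such a separation was seen in 1.31% of tested genes, and Plin5 was named for its low p. The list median was 0.19 without ctr_hEV 1 and 3 together. After median centring it was 0.34, against 0.03 over all tested genes, and after quantile normalization 0.13, against -0.01.

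Angptl8 had the widest relative spread of the 9 transcripts among ctr_hEV libraries. Angptl8 (chromosome 9, 21835510 to 21837347, plus strand) lies inside Dock6, a gene of the minus strand, and shares no exonic base with it. It was at 9.01, 8.62, 5.53 and 7.11 FPKM in RIC_hEV 1 to 4 and at 19.3, 16.9, 7.06 and 4.08 FPKM in ctr_hEV 1 to 4. The controls spanned the RIC_hEV range on both sides, with ctr_hEV 1 and 2 above it and ctr_hEV 4 below. Means were 7.57 ± 1.59 FPKM in RIC_hEV and 11.9 ± 7.42 FPKM in ctr_hEV (SD, n = 4 each), a coefficient of variation of 21.0% in RIC_hEV and 62.6% in ctr_hEV. The log2 change was -0.39 (SE 0.39, 95% interval -1.24 to 0.46, limma adjusted p = 0.607) and ranged from -0.76 without ctr_hEV 4 to -0.09 without ctr_hEV 1.

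Within a library, the ratio of Angptl4 to Angptl8 was 7.15, 6.25, 11.1 and 8.30 in RIC_hEV 1 to 4, against 2.11, 2.86, 5.27 and 12.1 in ctr_hEV 1 to 4. The RIC_hEV ratios lay above those of ctr_hEV 1, 2 and 3 and, in all 4 libraries, below that of ctr_hEV 4. The mean log2 ratio was 0.86 higher in RIC_hEV (two-sided exact permutation p = 0.229, 0.344 adjusted over 3 ratios computed, the smallest p that 70 assignments allow being 0.0286) and did not pass. This ratio was chosen after the values were seen. Its difference was 0.50 without ctr_hEV 1 and 1.34 without ctr_hEV 4.

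Among 12 tested genes of lipoprotein lipase control (15 listed) none passed, 5 were higher and 7 lower as fitted, and the median log2 change was close to 0. Over all tested genes 27.0% were higher and the median log2 change was -0.11. Lpl itself was at 16.8, 21.2, 20.8 and 25.2 FPKM in RIC_hEV 1 to 4 and at 40.0, 25.1, 40.2 and 18.1 FPKM in ctr_hEV 1 to 4 (log2 change -0.48, limma adjusted p = 0.377). Its 2 highest values were again those of ctr_hEV 1 and 3. Hepatic lipase, Lipc, was lowest in those libraries, at 23.5 and 22.1 FPKM, against 30.0 to 41.0 FPKM in RIC_hEV and 45.2 and 42.2 FPKM in ctr_hEV 2 and 4. Lipg, endothelial lipase, was at 7.28 to 8.09 FPKM in RIC_hEV and 3.43 to 6.22 FPKM in ctr_hEV with no overlap (log2 change 0.61, SE 0.14, limma adjusted p = 0.331). Such a separation was seen in 1.31% of tested genes, and Lipg was named for its low p. Sel1l, an endoplasmic reticulum protein needed for lipase maturation, averaged 9.22 ± 1.22 FPKM in RIC_hEV and 12.5 ± 2.56 FPKM in ctr_hEV. Gpihbp1, the capillary anchor of the enzyme, averaged 10.1 ± 0.439 FPKM in RIC_hEV and 10.8 ± 0.669 FPKM in ctr_hEV. Of the plasma regulators, Apoc3 averaged 600.2 ± 19.3 FPKM in RIC_hEV and 554 ± 66.8 FPKM in ctr_hEV, and Apoa5 averaged 231 ± 46.2 FPKM in RIC_hEV and 234 ± 25.3 FPKM in ctr_hEV.

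Angptl6 was the least abundant of the 9. Angptl6 (chromosome 9, 20873808 to 20879727, minus strand) shares 16.8% of its exonic bases with A230050P20Rik on the opposite strand, and since the strand setting of the counting is not given, its level is uncertain. It was at 5.84, 5.05, 5.56 and 5.76 FPKM in RIC_hEV 1 to 4 and at 3.37, 4.64, 4.52 and 6.01 FPKM in ctr_hEV 1 to 4. RIC_hEV values lay above 3 of the 4 controls and below ctr_hEV 4 (log2 change 0.24, SE 0.14, 95% interval -0.07 to 0.54, limma adjusted p = 0.417). Without ctr_hEV 1 and 3 together the change was 0.06. Of 9 other angiopoietin-like and angiopoietin axis genes 5 were tested, 1 higher and 4 lower as fitted (median log2 change -0.06), where 27.0% of all tested genes were higher, and none passed. Angptl2, expressed by stromal cells and macrophages, averaged 2.57 ± 0.673 FPKM in RIC_hEV and 3.58 ± 1.60 FPKM in ctr_hEV, and Pirb, an ANGPTL receptor of mouse leukocytes, averaged 4.42 ± 0.708 FPKM in RIC_hEV and 5.96 ± 2.03 FPKM in ctr_hEV.

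Both fetuin genes sit side by side on chromosome 16, and neither separated the groups. Ahsg (22891277 to 22899449, plus strand), encoding the mineral-binding fetuin-A, was at 2611, 2304, 2475 and 2338 FPKM in RIC_hEV 1 to 4 and at 2344, 2061, 2356 and 2095 FPKM in ctr_hEV 1 to 4. The groups overlapped, with ctr_hEV 1 and 3 just above RIC_hEV 2 and 4 (log2 change 0.14, SE 0.10, 95% interval -0.08 to 0.35, limma adjusted p = 0.490, and -0.08 under quantile normalization). Its 62 exonic bases shared with an opposite-strand gene model are 2.82% of its exons. Fetub (22918334 to 22939778, plus strand), encoding a metalloprotease inhibitor, was at 157, 104, 104 and 111 FPKM in RIC_hEV 1 to 4 and at 77.0, 92.0, 105 and 121 FPKM in ctr_hEV 1 to 4. RIC_hEV 1 stood above all other libraries, and the remaining RIC_hEV values lay inside the control range. The log2 change of 0.26 (SE 0.17, 95% interval -0.12 to 0.64, limma adjusted p = 0.457) was 0.12 without RIC_hEV 1. Of 15 listed cystatin-superfamily and fetuin-linked genes 13 were tested, 7 higher and 6 lower as fitted (median log2 change 0.02), none passing. By comparison, 27.0% of all tested genes were higher, with a median log2 change of -0.11. Hrg, the next gene along the same stretch of chromosome 16 (22951072 to 22961656, plus strand) and encoding histidine-rich glycoprotein, averaged 367 ± 78.7 FPKM in RIC_hEV and 277 ± 82.5 FPKM in ctr_hEV (limma adjusted p = 0.379). Kng1, encoding kininogen, averaged 565 ± 34.6 FPKM in RIC_hEV and 547 ± 70.2 FPKM in ctr_hEV. Mgp, encoding a calcification inhibitor that binds in complexes with fetuin-A, averaged 1.90 ± 0.745 FPKM in RIC_hEV and 4.07 ± 1.85 FPKM in ctr_hEV (limma adjusted p = 0.352).

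Lect2 was lowest in 2 of the 4 control libraries. Lect2 (chromosome 13, 56542464 to 56548502, minus strand) was at 121, 149, 153 and 116 FPKM in RIC_hEV 1 to 4 and at 89.4, 147, 90.3 and 132 FPKM in ctr_hEV 1 to 4. Both ctr_hEV 1 and ctr_hEV 3 lay below every other library, and ctr_hEV 2 and 4 lay inside the RIC_hEV range. The log2 change was 0.26 (SE 0.18, 95% interval -0.14 to 0.65, limma adjusted p = 0.482) and turned to -0.06 without those 2 libraries, whose high marker sums are given above and whose part in the Lect2 values was not tested. Since those libraries had the lowest Lect2 values, leaving out both could only lower the change. All 8 listed LECT2 partner genes were tested, 5 higher and 3 lower as fitted (median log2 change 0.02), and none passed. The share higher over all tested genes was 27.0%, with a median log2 change of -0.11. Met, the receptor that LECT2 can antagonise, averaged 4.17 ± 0.859 FPKM in RIC_hEV and 5.15 ± 0.364 FPKM in ctr_hEV (limma adjusted p = 0.364), and its ligand gene Hgf averaged 2.15 ± 0.561 FPKM in RIC_hEV and 3.07 ± 0.622 FPKM in ctr_hEV (limma adjusted p = 0.354).

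Rbp4 was the second transcript whose groups did not overlap. Rbp4 (chromosome 19, 38116629 to 38125281, minus strand) was at 2373, 2192, 2285 and 2218 FPKM in RIC_hEV 1 to 4, against 1442, 1892, 1575 and 2007 FPKM in ctr_hEV 1 to 4. RIC_hEV libraries lay close together and all above the controls, of which ctr_hEV 1 and 3 were the lowest. Means were 2267 ± 81.1 FPKM in RIC_hEV and 1729 ± 265 FPKM in ctr_hEV (SD, n = 4 each), a ratio of 1.31. The log2 change was 0.40 (SE 0.12, 95% interval 0.13 to 0.67), 0.51 relative to the median tested gene, with an unadjusted limma p of 0.00725 and an adjusted p of 0.331. It was 0.14 under quantile normalization, 0.22 without ctr_hEV 1 and 3 together, and 0.32 to 0.48 with any 1 library left out.

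Of 20 listed genes of vitamin A transport and storage 12 were tested, 5 higher and 7 lower as fitted (median log2 change -0.09), and none passed. Among all tested genes 27.0% were higher, and the median log2 change was -0.11. Ttr, whose product transthyretin binds RBP4 in plasma, was at 2123, 2508, 2808 and 1763 FPKM in RIC_hEV 1 to 4 and at 1656, 2391, 1802 and 2629 FPKM in ctr_hEV 1 to 4, with overlapping groups (limma adjusted p = 0.736). Stra6l, encoding the liver RBP4 receptor RBPR2, was at 10.6, 9.19, 8.22 and 9.99 FPKM in RIC_hEV 1 to 4 and at 12.9, 12.6, 13.0 and 11.8 FPKM in ctr_hEV 1 to 4. Every RIC_hEV value of Stra6l was below every control value, a separation in this direction seen in 4.56% of tested genes (log2 change -0.37, SE 0.10, limma adjusted p = 0.331). Stra6, the receptor of other tissues, was listed at 0 in all 8 libraries. Rdh11, a retinal reductase, averaged 4.05 ± 0.217 FPKM in RIC_hEV and 5.47 ± 0.951 FPKM in ctr_hEV (limma adjusted p = 0.352).

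**Figure D3:**
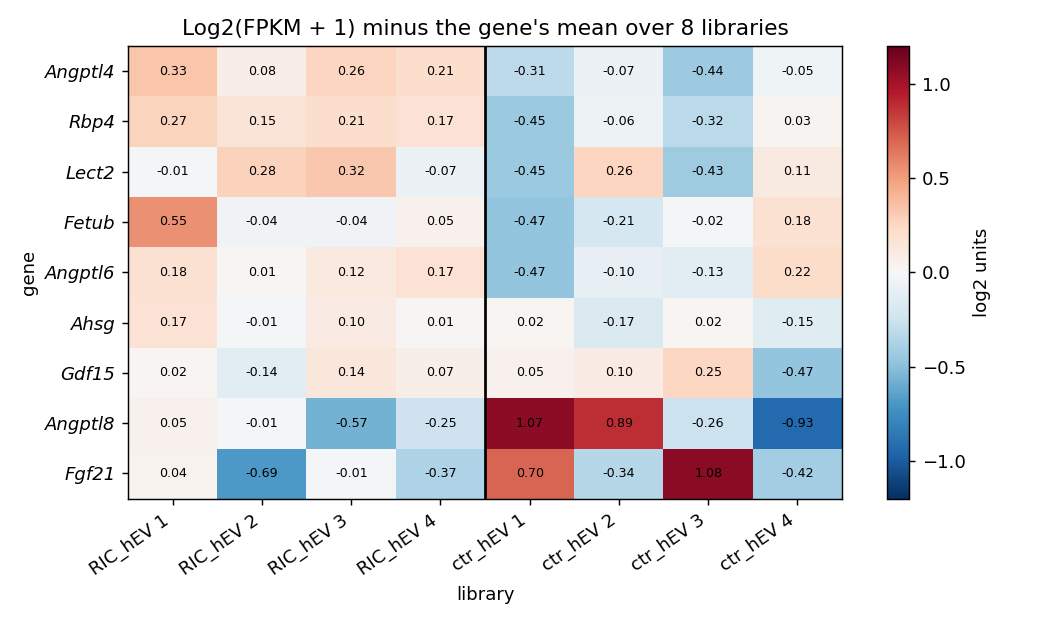
Log2(FPKM + 1) of each hepatokine transcript in each library minus its mean over the 8 libraries (colour and printed value, log2 units), RIC_hEV at left and ctr_hEV at right. In ctr_hEV 1 and 3 Fgf21 stands at 0.70 and 1.08 while Lect2 stands at -0.45 and -0.43 and Rbp4 at -0.45 and -0.32.

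Across libraries, ctr_hEV 1 and ctr_hEV 3 had the highest Fgf21 and the lowest Rbp4, Lect2 and Angptl4 of all 8. Leaving out both therefore moves the changes of these genes in a direction fixed beforehand. Within-group spread was wider in ctr_hEV for 8 of the 9 transcripts, Fetub being the exception, where 63.0% of tested genes were more variable in ctr_hEV by the coefficient of variation. For Rbp4 it was 3.58% in RIC_hEV and 15.3% in ctr_hEV. Summed heat-shock transcripts were at 1357 to 1710.2 FPKM in RIC_hEV and 967 to 1385 FPKM in ctr_hEV. As fitted, 11 of 11 such genes were higher, where 27.0% of all tested genes were (median log2 change 0.37, against -0.11 over all tested genes). At an unadjusted limma p under 0.05, 6 of them were higher, against 2.64% of all tested genes (8.20% after median centring), and none passed the adjusted threshold. Summed mitochondrially encoded transcripts were at 68553 to 74725 FPKM in RIC_hEV and 55045 to 72723 FPKM in ctr_hEV. Hepatocyte markers summed to 32172 to 38326 FPKM in RIC_hEV and 27028 to 40707 FPKM in ctr_hEV. The part of these in the values of Angptl4 and Rbp4 was not tested.

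Other secreted liver hormones also had no passing gene among 25 tested of 26 listed (9 higher, 16 lower, median log2 change -0.03), where 27.0% of all tested genes were higher as fitted. Igfbp2, an insulin-like growth factor binding protein, was at 688 to 863 FPKM in RIC_hEV and 529 to 583 FPKM in ctr_hEV with no overlap (log2 change 0.47, SE 0.11, limma adjusted p = 0.331). Such a separation was seen in 1.31% of tested genes, and Igfbp2 was named for its low p. Igfbp1, a binding protein repressed by insulin, was at 903, 474, 710.2 and 482 FPKM in RIC_hEV 1 to 4 and at 289, 127, 354 and 854 FPKM in ctr_hEV 1 to 4, with overlapping groups. Orm2, an acute-phase protein, averaged 130.4 ± 23.6 FPKM in RIC_hEV and 234 ± 105 FPKM in ctr_hEV. Igf1 averaged 36.7 ± 4.81 FPKM in RIC_hEV and 35.9 ± 8.65 FPKM in ctr_hEV, and the selenium carrier Selenop 3015 ± 72.5 FPKM in RIC_hEV and 3097 ± 298 FPKM in ctr_hEV. The activin subunit gene Inhbe averaged 15.1 ± 2.71 FPKM in RIC_hEV and 18.9 ± 7.39 FPKM in ctr_hEV.

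**Figure D4:**
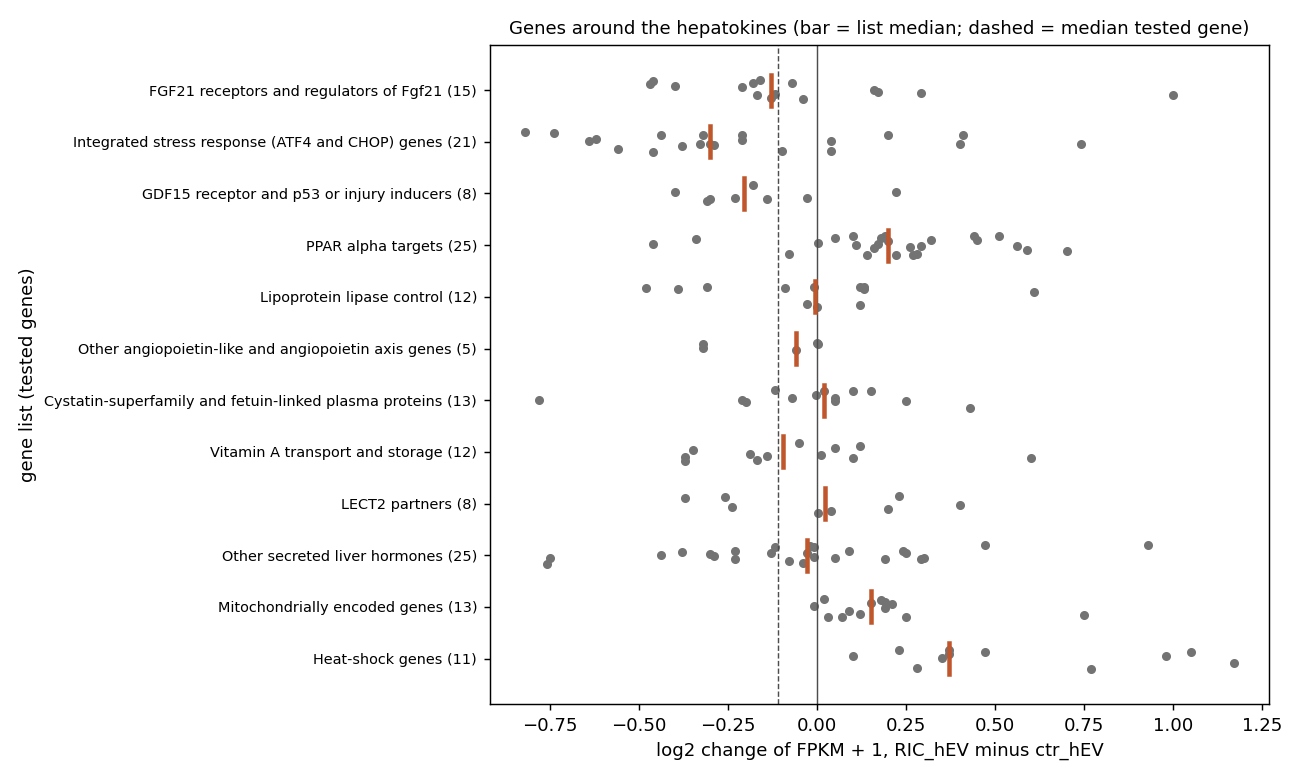
Log2 change, RIC_hEV minus ctr_hEV, of the tested genes of 12 gene lists around the hepatokines (points), with list medians as bars and the median tested gene at -0.11 as a dashed line. The list medians reach from -0.30 for the integrated stress response through 0.20 for PPAR alpha targets to 0.37 for heat-shock genes.

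The named genes whose log2(FPKM + 1) ran most nearly parallel to each hepatokine over the 8 libraries are given as a description, being those with the 3 highest Pearson r among tested genes. For Rbp4 they were the carboxylesterase gene Ces3a (r = 0.983), the fatty acid transporter gene Slc27a2 (0.983) and the major urinary protein gene Mup21 (0.977), and for Angptl4 the fatty acid omega-hydroxylase genes Cyp4a12a (0.971) and Cyp4a12b (0.969) and the VIP receptor gene Vipr1 (0.970). For Fgf21 they were Asb6 (0.975), Slc17a9 (0.974) and the acyl-CoA synthetase gene Acsl4 (0.971). Lect2 ran closest to Cyp2c67 (0.973), Immp2l (0.971) and Akr1c6 (0.969), and Fetub to angiotensinogen, Agt (0.948), Egfr (0.946) and prothrombin, F2 (0.936). Ahsg had Cpn1 (0.940), Lepr (0.917) and Mfsd2a (0.903), and Gdf15 had Otud3 (0.962), Scnm1 (0.938) and Ccnyl1 (0.928). Angptl8 had Slc52a2 (0.983), Dpf2 (0.971) and Cpsf4 (0.960), and Angptl6 had Ell2 (0.974), Alg11 (0.973) and the microRNA gene Mir290a (0.964). The points share library depth and tissue make-up, and none of these genes passed the threshold. Each r is among the highest of those with 11268 tested genes over only 8 points, so its size partly reflects that selection. It also contains any difference between groups, as for Cyp4a12a (log2 change 1.94) and Ces3a (1.04). Shared regulation was not tested.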

How the data were processed

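Mouse liver RNA (8 libraries, 4 RIC_hEV and 4 ctr_hEV, groups read from the sample titles) was extracted with Trizol and sequenced after a VAHTS library preparation, per the labels' protocols. Tools listed in the submitters' processing notes include FastQC 0.11.9 and Trimmomatic 0.38 for reads, HISAT2 2.2.1 and HTSeq 0.13.5, with build mm10. The authors deposited FPKM in 8 columns. How FPKM was computed, on which gene lengths, annotation and strand setting, is not stated in the labels. The deposited FPKM had at most 6 decimals in 99.0% of 1519 genes with 1 annotated transcript and in 0.859% of 8264 genes with several. No count test was used.

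Of 55335 rows, 3225 without a gene name (0.176% to 0.207% of FPKM) were left out, as were lower rows of 80 repeated symbols. Total FPKM was 389616 to 430326. Genes with a mean of at least 1 FPKM (11268) were compared as log2(FPKM + 1), which understates changes of low genes, in limma 3.58.1 (R 4.3.3) with a mean-variance trend, two-sided, with Benjamini-Hochberg adjustment over all of them. The fit was run on simulated independent genes with changes larger than any hepatokine change here. Its sensitivity at the sizes seen here was not tested. SE and p belong to the change as fitted, and the median tested gene lay at -0.11. The ratio used an exact permutation test (scipy 1.17.1). Members, lists, markers and alternatives were chosen with earlier results of these data known. Named genes are the 9 members, the 2 lowest p of each list with a set of key genes, and the 3 genes with the highest r per member. The listed symbol Pcsk3 was not matched, and 26 date-like symbols are not described. Some genes that this rule names are not reported here.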

Additional observations from a re-analysis of the deposited data

Results flagged for a closer look

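Fetub in RIC_hEV 1 stood far from the other RIC_hEV libraries. It was at 157 FPKM, against 104, 104 and 111 FPKM in RIC_hEV 2, 3 and 4, and its gap to the nearest library was 0.873 of the group's range, above Dixon's 95% critical value for 4 samples. Of 18 sets of 4 values examined (9 genes in 2 groups) it was the 1 so marked, and chance marks about 1 in 20. The same library also had the highest Ahsg (2611 FPKM), Rbp4 (2373 FPKM) and Angptl4 (64.4 FPKM) of all 8.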

How the results depend on the processing

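No hepatokine passed an adjusted p of 0.05 under any of the 17 alternative settings, the lowest adjusted p being 0.0562 for Angptl4 and 0.0577 for Rbp4, both with estimated library weights. Angptl4, Angptl6, Angptl8, Fetub and Rbp4 kept their direction in all 17. Directions that turned were Fgf21 at 0.13 and Lect2 at -0.06 without ctr_hEV 1 and ctr_hEV 3 together, Ahsg at -0.08 under quantile normalization, and Gdf15 at -0.02 on a TPM scale and -0.11 with library weights. The pair ctr_hEV 1 and 3 held the highest Fgf21 and the lowest Lect2, so the direction of those shifts was fixed beforehand. With 1 library left out Gdf15 ranged from -0.11 to 0.13. The count of all genes passing, 4, was 2 without a filter on low values, 1 at a minimum mean of 5 FPKM, 15 with library weights, 8 without ctr_hEV 1 and 3 together, and 1 to 178 with 1 library left out. The causes were not tested. With the replicate number as a block the count was 3 and no hepatokine passed (Angptl4 and Rbp4 adjusted p = 0.493), but the numbers only name samples: correlations of same-numbered deviations ran from -0.227 to 0.12, and 1 of 8 libraries correlated best with its own number. Depth, known only as an estimate, limits Angptl8 and Angptl6 most.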
